A study of Homo sapiens with 8 samples.

Results

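The zinc finger gene cluster of 19q13.12 was described here as every window of a genome-wide open-chromatin table (hg19) that lay on chromosome 19 and started between position 36600001 and position 38400000. This interval of 1.8 Mb held 1066 of the 256141 windows of the table, or 0.416% of them. Windows were 150 bp long, started every 50 bp and shared fragments with their neighbours, so windows with gaps of at most 100 bp were merged, which gave 120 of 35741 regions. The members were chosen by position, but the interval was picked from chromosome 19 with lower signal after AIRE induction already known in these data. Values for AIRE induction are therefore given as a description, with no p-value. Calls for AIRE induction use a threshold on adjusted p, and their counts in this interval are a description as well. The table names no genes and no hg19 annotation was used, so the gene content of single windows was not checked.

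KRAB zinc finger proteins bind DNA through arrays of zinc fingers and recruit the co-repressor TRIM28 through their KRAB domain. They are known for silencing transposable elements through repressive histone methylation. Their genes lie in clusters that grew by tandem duplication, many of them on chromosome 19, and their promoters are often rich in CG dinucleotides. All 30 zinc finger genes listed for this interval were found in RefSeq on GRCh38.p14. The run from ZNF565 to ZNF573 held 30 protein-coding genes there, of which 29 were on the list, among them ZNF146, ZFP14, ZNF566, ZNF382, ZNF420 and ZNF585A. COX7A1 and CAPNS1, which are not zinc finger genes, preceded the run. Whether they lie inside the hg19 interval was not checked, so windows near its start need not belong to zinc finger genes.

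The 250 bases upstream of the start site were at hand for 27 of the listed genes. They held a median of 18 CG dinucleotides, with a range of 8 to 31, against a median of 11 over 27305 RefSeq promoters. The promoters with the most and the fewest are printed from RefSeq GRCh38.p14, 5′ to 3′ with CG in capitals, to show this range. They are not tied to any window of the hg19 table.
ZFP82: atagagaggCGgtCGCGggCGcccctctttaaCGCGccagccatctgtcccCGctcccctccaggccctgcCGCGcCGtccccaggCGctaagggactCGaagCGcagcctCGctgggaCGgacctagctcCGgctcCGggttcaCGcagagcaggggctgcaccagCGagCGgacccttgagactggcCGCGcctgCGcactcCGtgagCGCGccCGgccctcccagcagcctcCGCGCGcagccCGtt
ZFP30: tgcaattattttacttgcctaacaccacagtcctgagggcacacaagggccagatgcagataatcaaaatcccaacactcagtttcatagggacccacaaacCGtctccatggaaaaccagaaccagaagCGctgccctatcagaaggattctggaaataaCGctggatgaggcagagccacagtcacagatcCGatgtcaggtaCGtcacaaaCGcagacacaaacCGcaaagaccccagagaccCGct

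AIRE (autoimmune regulator) is best known for driving transcription of tissue-restricted genes in the thymus. The cells were AIRE-Tet cells, a Tet-On derivative of the human embryonic kidney line HEK293 in which doxycycline switches on human AIRE. The 4 groups had 2 independent biological replicates each. DoxEtop cells received 1.5 µM doxycycline and, 24 h later, 2 µM etoposide for 24 h. Dox cells received doxycycline alone, Etop cells received etoposide alone, and Control cells received neither. Etoposide traps topoisomerase II on cut DNA and so gives DNA breaks. FAIRE-seq recovers DNA poorly bound by nucleosomes from fixed chromatin, and a higher count marks more open DNA. All groups are the same engineered line, doxycycline in cells without the AIRE gene was not analysed here, and input DNA was not analysed here. In bulk DNA, fewer cells with an open site and less opening in each cell cannot be told apart.

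Column totals ran from 4489871 to 5305079 in the 4 AIRE-induced libraries (Dox and DoxEtop) and from 4568818 to 8275911 in the 4 uninduced libraries (Control and Etop). They are sums over overlapping windows, not library depths. Levels are in CPM, the usual depth-scaled count, taken here over the column total after TMM adjustment. Over the 120 region summits, chi-square between replicates divided by its degrees of freedom was 5.28 for Control. It was 1.95 for Dox, 2.31 for DoxEtop and 2.74 for Etop. This value grows with counts at the same relative spread, and the Control columns held 8275911 and 6787276 counts.

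Open chromatin of the cluster was sparse and uneven. The summit of a region is its window with the highest summed count. Regions had a median width of 325 bp and covered 3.77% of the interval. The gap between neighbouring regions had a median of 2650 bp and reached 93.9 kb. The 33 regions of at least 800 bp held 71.3% of the cluster's windows, against 44.4% of windows in such regions over the whole table. The widest region, from 36603551 to 36607300, was 3750 bp long and held the strongest summit. Windows of the cluster had a median level of 4.33 CPM, against 3.42 CPM in the table.

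With AIRE induction the cluster took a smaller share of all window counts. Its share was 0.567% and 0.536% in the Dox libraries and 0.492% and 0.542% in the DoxEtop libraries, against 0.618% and 0.721% in the Control libraries and 0.652% and 0.631% in the Etop libraries. Every induced library lay below every uninduced one, and this also held for the rest of chromosome 19, with 14.5% to 15% in induced libraries and 15.3% to 16.7% in uninduced libraries. The mean share of the cluster was 0.534% ± 0.031 in induced libraries and 0.655% ± 0.0457 in uninduced libraries (SD, n = 4 each), a log2 ratio of -0.29. The ratio was -0.20 over summits alone and -0.47 as a difference of median log2 CPM.

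Windows were called lower or higher where edgeR's quasi-likelihood test gave a Benjamini-Hochberg adjusted p of at most 0.05 over the whole table. For AIRE induction, 219 of the 1066 windows (20.5%) were called lower, in 45 regions. Over all windows, 6.17% were called lower, and in the rest of chromosome 19 9.73% were. In the other direction 7 windows (0.657%) were called higher, in 4 regions, against 1.27% in the table. The median log2 fold change was -0.36 in the cluster, -0.11 in the rest of chromosome 19 and 0.04 in the table. All 4 induced libraries lay below all 4 uninduced libraries at 226 windows (21.2%), against 7.49% of windows in the table, and above them at 21 windows (1.97%), against 4.98%. Per region, by Simes' test, 46 of 120 were lower and 1 was higher, against 12.9% and 1.42% in the table. The number of called windows was 119 without Control replicate 2 and 145 without DoxEtop replicate 1, and limma-voom called 41, all of them lower. Lower windows made up 10.9% of the cluster without Control replicate 2 (2.59% of the table), 13.4% without DoxEtop replicate 1 (3.2% of the table) and 3.85% with limma-voom (0.244% of the table).

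**Figure D1:**
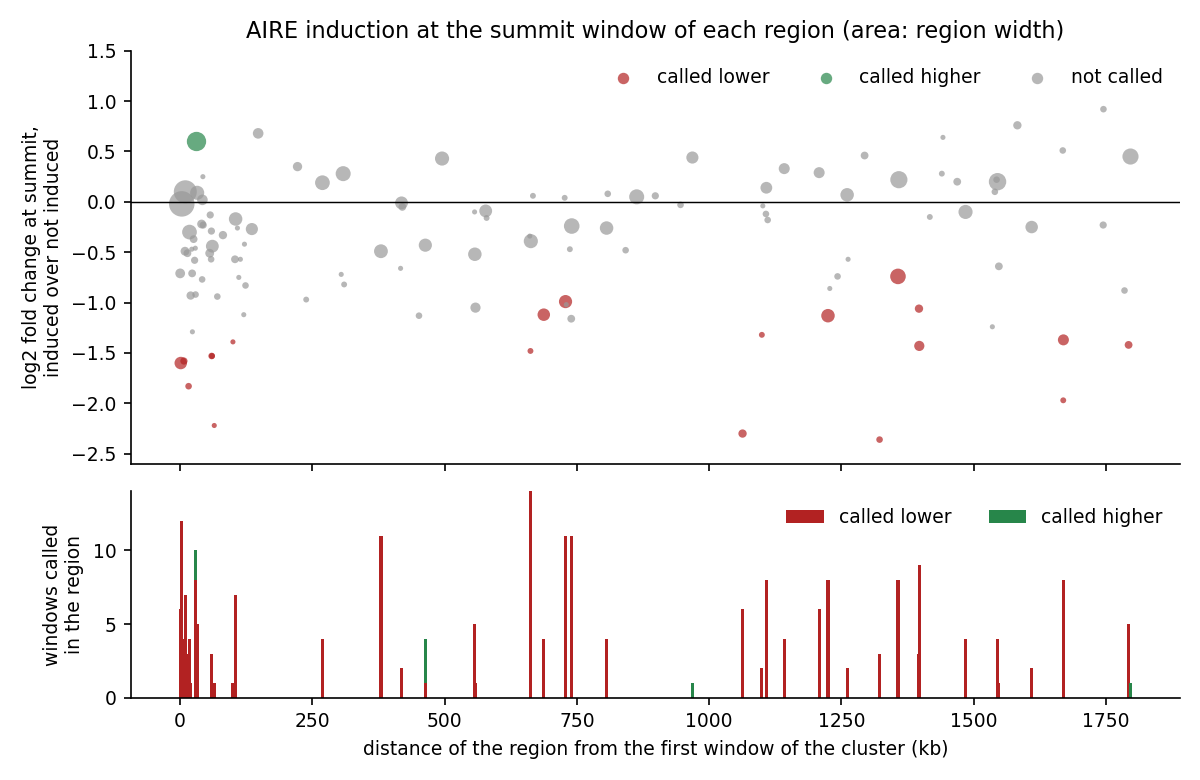
Open-chromatin regions of the zinc finger cluster by distance from its first window in kb, with the log2 fold change of AIRE induction at each region's summit in the upper panel (point area by region width) and the number of windows called lower or higher in each region in the lower panel. Lower windows lie in 45 regions, with up to 14 in a region, and higher windows in 4.

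The losses were not even along the interval. The interval was cut in bins of 200 kb counted from the first position. Windows called lower made up 46.7% of the fourth bin and 48.8% of the sixth, but 5.8% of the fifth, which lies between them. These shares rest on few regions of overlapping windows. A lower window was held by 6 of 11 regions in the fourth bin, 1 of 7 in the fifth and 4 of 7 in the sixth. The median log2 fold change at summits was -0.47, 0.05 and -0.12 in these bins. The first bin held 392 windows in 45 regions, with 16.1% called lower, and the remaining 674 windows had 23.1%. Every bin held at least 1 region with a lower window. Window levels were put in 4 classes from lowest to highest, cut at the table's quartiles. The share called lower was 16%, 24.3%, 23.8% and 20% over these classes. In the rest of the table it was 6.53%, 6.52%, 6.13% and 5.26%. In the rest of chromosome 19 it was 8.92%, 9.31%, 10.1% and 10.6%. By width, the cluster's share was 16.9% in regions of at most 300 bp, 25.6% between 300 and 800 bp and 20% in wider ones. These width classes had 9.91%, 6.42% and 4.61% in the rest of the table and 10.2%, 9.6% and 9.7% in the rest of chromosome 19.

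Some short regions were low over their whole length. No listed window of the table held fewer than 111 counts summed over the 8 libraries. Windows with few induced counts, here and below, are therefore listed only through their uninduced counts. In 6 of 85 regions with at least 3 windows (7.06%), every window was called lower, against 2.47% of 27297 such regions in the rest of the table. The region from 37663551 to 37663950 had summit counts of 5 and 16 in Dox and 8 and 12 in DoxEtop, against 61 and 93 in Control and 78 and 37 in Etop. The groups did not overlap. Its level was 2.09 ± 1.13 CPM in induced libraries and 10.1 ± 3.02 CPM in uninduced libraries (SD, n = 4 each), and the log2 fold change was -2.30 (SE 0.32).

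The lowest called summit lay in the region from 37922601 to 37922850. It had counts of 10 and 0 in Dox and 6 and 3 in DoxEtop, against 38 and 32 in Control and 38 and 21 in Etop, and the log2 fold change was -2.36 (SE 0.47). With loess offsets, which scale each library by the mean log count of a window, this value was -0.30 and no longer called. Near-empty libraries lower the mean log count, so these offsets may take up part of such a difference. The third lowest, at 36664951, had 6 and 5 counts in Dox and 7 and 2 in DoxEtop, against 11 and 46 in Control and 35 and 27 in Etop. Its log2 fold change was -2.22 and was -0.77, not called, with loess offsets. Control replicate 1 was the uninduced library nearest to the induced ones there. Over the 8 lowest among called summits whose groups did not overlap, the log2 fold change ran from -2.36 to -1.48. The summits at 36616551 (-1.83) and 36607751 (-1.58) were also called but had overlapping groups, and are not among these 8.

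**Figure D2:**
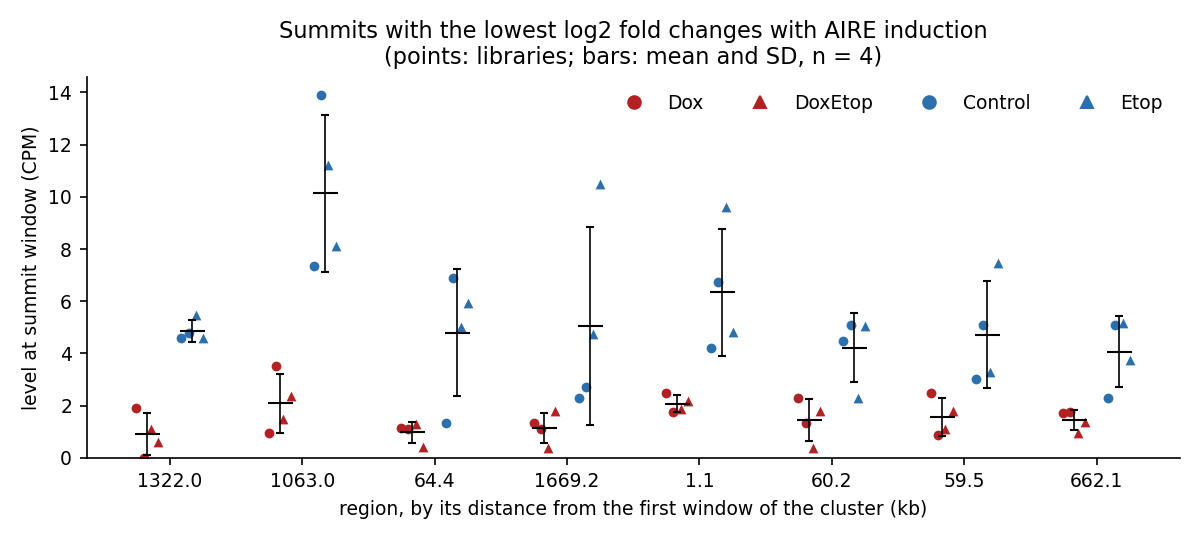
Level in CPM of the 8 lowest among called summits whose induced and uninduced libraries did not overlap, so the separation shown was part of the choice, with each region named by its distance from the first window in kb, 1 point per library and bars for the mean and SD of 4 libraries. At the summit of 37663651 the induced libraries lie between 0.953 and 3.53 CPM and the uninduced libraries between 7.35 and 13.9 CPM.

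Most summits of the cluster were not called, and the same was true of the strongest summits. Among the 8 summits with the highest counts, 7 did not pass. The strongest, at 36606151, had 23.3 ± 3.96 CPM in induced libraries and 23.6 ± 4.37 CPM in uninduced libraries (log2 fold change -0.02, SE 0.18). The exception was 36630801, which was called higher, with 20.9 ± 2.48 CPM against 13.8 ± 2.73 CPM in uninduced libraries (SD, n = 4 each; log2 fold change 0.60, SE 0.19). Its counts were 111 and 79 in Dox and 125 and 109 in DoxEtop, against 146 and 80 in Control and 81 and 63 in Etop. The groups overlapped there, and with loess offsets the fold change was 0.56 and not called. An uncalled summit did not mean a region without lower windows. The region of 36606151 held 12 windows called lower, with log2 fold changes down to -3.02. Lower windows numbered 4 in the regions of 36618851 and 36870051 and 7 in that of 36705451, but 0 in that of 37178351. Over all 120 summits, 20 (16.7%) passed as lower and 1 as higher, where the table's summits had 7.91% and 1.05%. The induced libraries all lay below the uninduced ones at 18 summits (15%), against 9.2% in the table, and above them at 3 (2.5%), against 4.08%.

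In wide regions the lower windows often lay beside the summit. The summit was chosen on the counts of all 8 libraries, so a window that loses signal is less likely to be the summit. The values by distance below carry this choice. Of the 33 regions of at least 800 bp, 24 (72.7%) held a window called lower, against 26.6% of 5904 such regions in the rest of the table. A region with more windows can more easily hold one. The 33 regions held 760 windows at a median of 5.47 CPM, and the 5904 held 112949 at 3.71 CPM. Shares of regions were not taken for the rest of chromosome 19 alone. In 18 of the 24 (75%) the summit itself was not called, and the corresponding share elsewhere was 84.3%. Within 150 bp of the summit the mean level was 8.95 ± 0.431 CPM in induced libraries and 9.9 ± 0.544 CPM in uninduced libraries, a ratio of 0.90. At 200 to 400 bp it was 4.69 ± 0.198 CPM in induced libraries and 6.21 ± 0.545 CPM in uninduced libraries, a ratio of 0.75. Beyond 400 bp it was 3.78 ± 0.29 CPM in induced libraries and 5.25 ± 0.517 CPM in uninduced libraries, a ratio of 0.72 (SD, n = 4 each). The share of windows called lower was 16.2%, 22.4% and 21.1% over these distances, against 4.18%, 4.71% and 4.96% in the rest of the table. In the rest of chromosome 19 it was 8.04%, 9.53% and 11.1%. Of 20 wide regions with at least 3 lower windows off the summit, 8 (40%) had them on 1 side only, against 64.5% of 777 elsewhere.

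**Figure D3:**
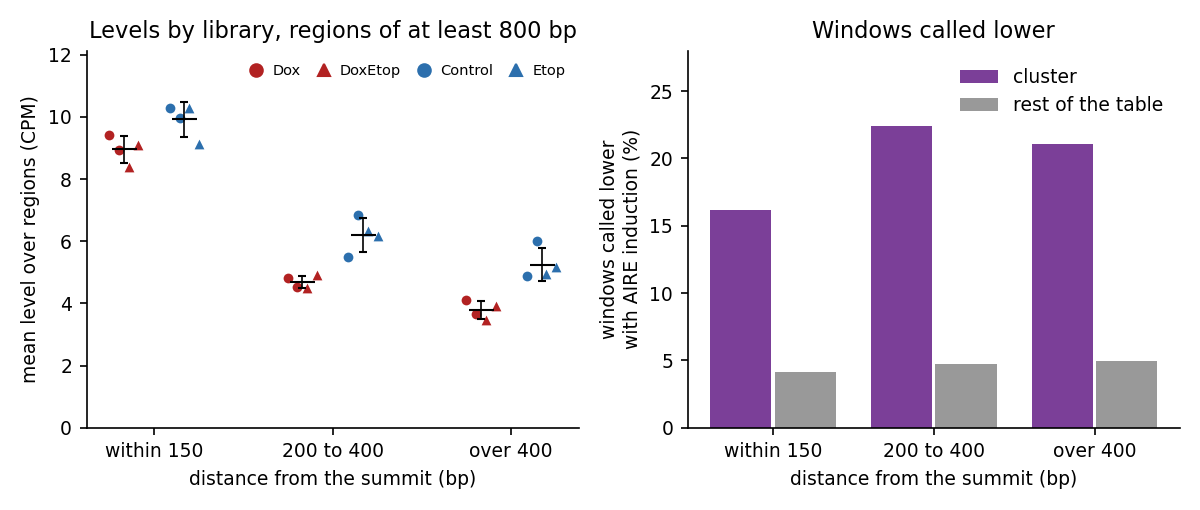
Wide regions by distance from the summit in bp, with the mean level in CPM of each library in the left panel (bars: mean and SD of 4 libraries) and the percentage of windows called lower in the cluster and in the rest of the table in the right panel. The induced to uninduced ratio is 0.90 within 150 bp and 0.72 beyond 400 bp.

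The region from 37263301 to 37264450 showed this over most of its length. Its summit had 7.95 ± 0.908 CPM in induced libraries and 10.4 ± 1.78 CPM in uninduced libraries and was not called (log2 fold change -0.39). On 1 side, 200 bp away, the window at 37263901 had 3.72 ± 0.635 CPM in induced libraries and 11.5 ± 3.43 CPM in uninduced libraries. In the uninduced libraries the mean level of that window was above that of the summit. At 450 bp the window at 37264151 had 0.669 ± 0.475 CPM in induced libraries and 5.02 ± 1.63 CPM in uninduced libraries (SD, n = 4 each; log2 fold change -2.90, SE 0.48). Of its 21 windows, 14 were called lower.

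The region from 36705301 to 36706350 had a pair of summits with a gap between them that deepened. The main summit, at 36705451, had 14.2 ± 1.85 CPM in induced libraries and 15.9 ± 3.02 CPM in uninduced libraries (log2 fold change -0.17), and the other, at 36705951, had 13.4 ± 0.443 CPM in induced libraries and 16 ± 1.72 CPM in uninduced libraries (-0.26). Neither was called, though at 36705951 every induced library lay below every uninduced one. Between them the window at 36705701 had counts of 7 and 3 in Dox and 6 and 5 in DoxEtop, against 37 and 59 in Control and 85 and 38 in Etop. The groups did not overlap. The level was 1.03 ± 0.282 CPM in induced libraries and 8.46 ± 3.17 CPM in uninduced libraries, a log2 fold change of -2.99 (SE 0.37). Double-summit regions were looked for after this one had been seen. Summits and dips were set on the mean level of all 8 libraries, so a window that loses signal is more likely to be a dip. The cluster held 10, with median log2 fold changes of -0.09 at the higher summit, -0.68 in the dip and -0.23 at the lower summit, and 4 dips were called lower, as were 2 higher and 2 lower summits. Without the region first seen the medians were -0.01, -0.59 and -0.20, and 3 of 9 dips were called lower. In 650 such regions elsewhere the medians were 0.16, 0.17 and 0.17, and 35 dips (5.38%) were called lower.

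Gains were few, and 2 of their 4 regions also held a lower window. All 4 were at least 800 bp wide, and 72.7% of such regions of the cluster held a lower window. In the region from 37063901 to 37064900, 3 windows were called higher and 1 lower. The window at 37064551 had 9.1 ± 0.503 CPM in induced libraries and 4.14 ± 2.02 CPM in uninduced libraries (SD, n = 4 each; log2 fold change 1.16). Its counts were 46 and 39 in Dox and 50 and 49 in DoxEtop, against 55 and 33 in Control and 18 and 11 in Etop, and the Etop libraries were the lowest. The interaction was not called there. The region from 36630201 to 36632350 held 2 higher and 8 lower windows.

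**Figure D4:**
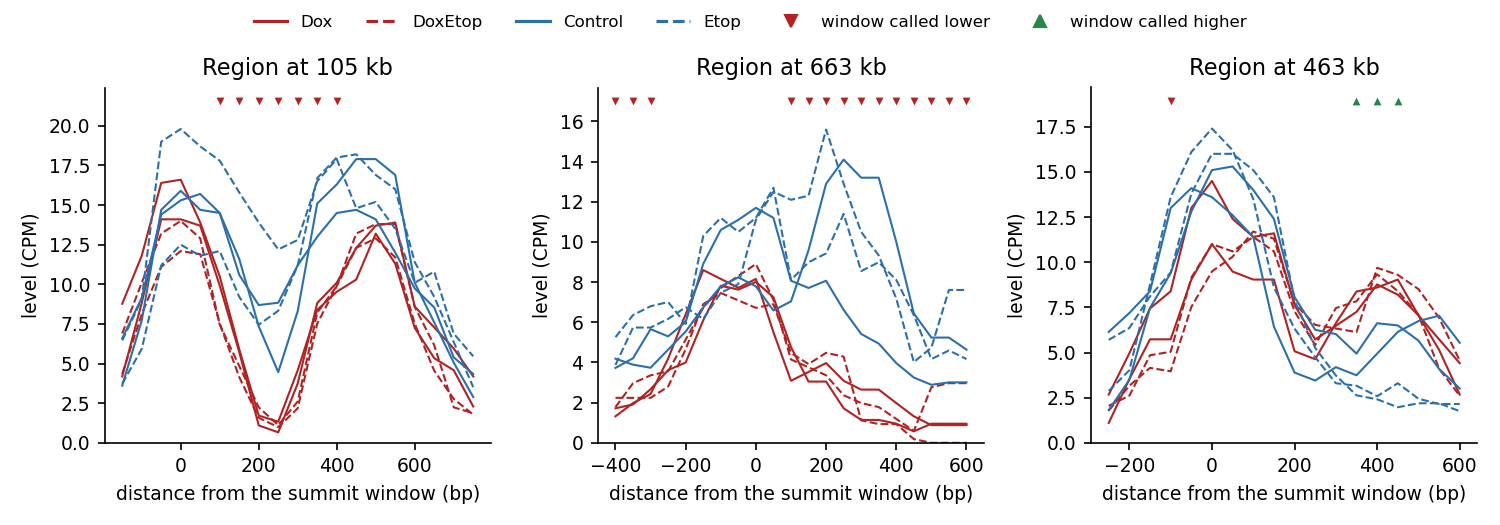
Level in CPM across 3 wide regions against distance from the summit in bp, with 1 line per library and marks on windows called lower or higher for AIRE induction. In the region from 36705301 the main summit overlaps between groups while the window 250 bp away has 1.03 CPM in induced libraries and 8.46 CPM in uninduced libraries.

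Without etoposide, Dox against Control, 49 windows (4.6%) in 16 regions passed as lower and 0 as higher, where the table had 0.848% lower and 0.0156% higher. The lowest, at 37808501, held 2 and 2 counts in the Dox libraries, against 16 and 66 in the Control libraries (log2 fold change -3.76, SE 0.80). The window at 36705651, in the double-summit region, held 9 and 5 counts in the Dox libraries, against 61 and 58 in the Control libraries (log2 fold change -2.47, SE 0.47). No window was called without Control replicate 2, without Dox replicate 1 or without Dox replicate 2, and 81 were called without Control replicate 1. DESeq2 called 16 windows, all lower (0.101% of the table lower), and limma-voom called 0 (0.00195%).

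With etoposide, DoxEtop against Etop, 103 windows (9.66%) in 31 regions passed as lower and 7 (0.657%) as higher, where the table had 2.43% lower and 0.45% higher. The lowest, at 36616551, held 2 and 2 counts in the DoxEtop libraries, against 53 and 23 in the Etop libraries (log2 fold change -3.98, SE 0.71). The highest of the windows named by the rule, at 37064551, held 50 and 49 counts in the DoxEtop libraries, against 18 and 11 in the Etop libraries (log2 fold change 1.91, SE 0.40). Leaving out DoxEtop replicate 1 gave 3 called windows. Leaving out Etop replicate 1 gave 22, and leaving out DoxEtop replicate 2 gave 65. DESeq2 called 48, of which 44 were lower (0.805% of the table lower), and limma-voom called 0 (0.00547%).

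The induction comparisons with and without etoposide share no library, but they use the same estimate of spread per window. In the cluster 33 windows in 12 regions were lower in both, which is 67.3% of the 49 without etoposide and 32% of the 103 with it. Over the whole table these shares were 57.6% and 20.1%. Lower windows were also more frequent in the cluster to begin with, at 9.66% against 2.43% with etoposide, which raises such shares. No window was called in opposite directions. Over the 120 summits Pearson's r was 0.60 and Spearman's rho 0.62, and 75.8% had the same sign, against 0.57, 0.51 and 68.1% over the summits of the table. Of the cluster's windows 69.1% lay below 0 without etoposide and 71.4% with it, against 48.7% and 49% in the table. Equal signs are more frequent in the cluster for that reason alone, so its higher share does not show closer agreement. Neighbouring summits are not independent.

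**Figure D5:**
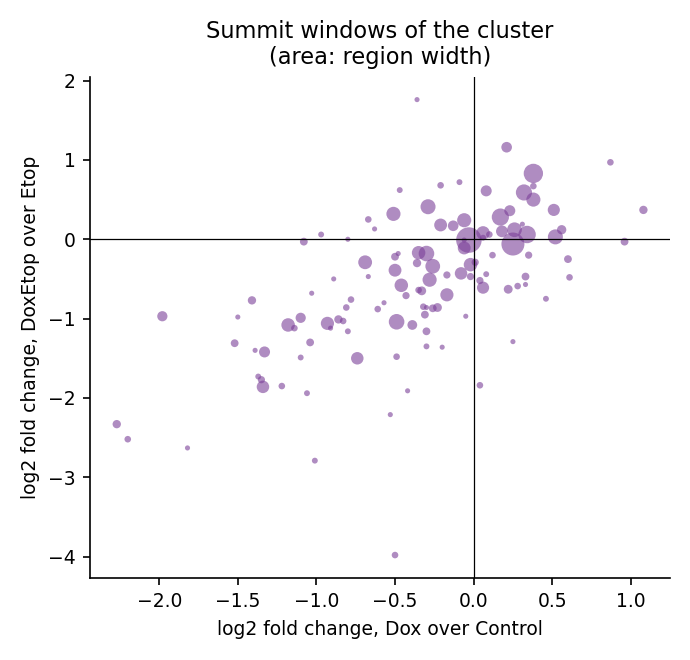
Log2 fold change of DoxEtop against Etop plotted against that of Dox against Control for the 120 summits of the cluster, with point area by region width. Of these, 71 lie below 0 in both comparisons and 20 above 0 in both.

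The interaction of induction and etoposide tests whether these responses differ, and edgeR called 0 windows of the cluster and 0% of the table. At an unadjusted p of 0.05, 50 windows (4.69%) passed, against 4.14% in the table, and DESeq2 and limma-voom called 0 in the cluster. The summit with the smallest p was 36616551, with an interaction of -3.48 on the log2 scale (adjusted p = 1 by edgeR's quasi-likelihood test). DoxEtop libraries held 2 and 2 counts and Etop libraries held 53 and 23. Dox libraries held 14 and 10 counts and Control libraries held 14 and 36.

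Etoposide itself gave no called window. For the main effect edgeR called 0 of 1066 windows and 0% of the table, with 52 (4.88%) at an unadjusted p of 0.05, against 5.83% in the table. The median log2 fold change was -0.08. For Etop against Control edgeR called 0 (0% of the table), with 43 (4.03%) at an unadjusted p of 0.05, against 5.57% in the table. For DoxEtop against Dox it called 0 (0% of the table), with 55 (5.16%), against 4.26%. DESeq2 and limma-voom also called 0 in the cluster in these 3 comparisons. All 4 etoposide libraries lay below the others at 12 windows (1.13%), against 1.29% in the table, and above them at 0 windows, against 1.3%. The summit with the smallest p, at 37701851, had 6 and 10 counts in Etop and 7 and 8 in DoxEtop, against 25 and 37 in Control and 24 and 16 in Dox. The groups did not overlap, but the log2 fold change of -1.51 did not pass (adjusted p = 0.639 by edgeR's quasi-likelihood test).

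At the edges of the interval, the first summit inside, at 36600651, had a log2 fold change of -0.71 for AIRE induction and the nearest outside, at 36599201, had -1.09, neither of them called. At the far end the last summit inside, at 38397751, had 0.45 and was not called, and the nearest outside, at 38416851, had -2.28 and was called lower.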

How the data were processed

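FAIRE-seq libraries came from formaldehyde-fixed AIRE-Tet cells, with paired-end reads of 100 bp, per the labels' protocols. The submitters' processing notes name Trim Galore, Bowtie2, Bowtie and hg19 but no version of any tool. The choice of windows and any subtraction of input were not given in the sources used here. Values in the deposited table are raw counts, with a column for each library, and every column was used.

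Windows were tested over the whole table with edgeR 4.0.16 in R 4.3.3 (TMM, glmQLFit and glmQLFTest, two-sided, Benjamini-Hochberg at 0.05). An additive model of induction and etoposide gave the main effects and a model with 1 mean per group the other comparisons. DESeq2 1.42.0, limma 3.58.1 (voom), loess offsets, other scalings, a filter on low windows, a replicate block and each library left out were alternatives.

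The procedure was tested on simulated data. Estimates matched the drawn counts and unchanged windows were rarely called. A first criterion, that most strong changes of either direction be called, failed and was replaced. Strong increases were nearly all called, but many decreases of the same fold missed the adjusted threshold. Far fewer windows were changed in the simulation than were called in the real table, so its adjusted threshold was stricter. The share missed there does not carry over. Decreases may be missed here too, but how many was not tested.

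Named windows are the 8 strongest summits, the 8 lowest called summits whose groups do not overlap, and the regions at each end. Up to 5 called windows in each direction (or the 3 summits with the smallest p) were named for the other comparisons. The rule also asked for the 8 highest called summits without overlap, but no summit met it. The members, lists and rules were chosen with earlier results of these data known.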

Additional observations from a re-analysis of the deposited data

How the results depend on the processing

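The cluster's median fold change for AIRE induction, Dox against Control and DoxEtop against Etop stayed below 0 under the alternatives run, and no named window that was called changed sign. Uncalled strong or wide sites near 0 did: 36606151 (-0.02) was 0.01 without TMM and -0.13 to 0.09 with 1 library left out, and leaving 1 library out gave -0.21 to 0.41 at 36610351, -0.27 to 0.01 at 36705451, -0.19 to 0.05 at 37178351 and -0.01 to 0.13 at 37861851. For AIRE induction 226 windows of the cluster were called, with 206 by DESeq2, 41 by limma-voom, 185 with loess offsets and 119 to 271 with 1 library left out. For Dox against Control the 49 calls became 16 with DESeq2, 0 with limma-voom and 0 to 81 with 1 library left out. For DoxEtop against Etop the 110 calls became 48 with DESeq2, 0 with limma-voom and 3 to 151 with 1 library left out. Regions called numbered 47 by Simes' test and 23 (22 lower) by the summit window with p adjusted over summits only. The log2 ratio of the cluster's share was -0.29, with -0.47 for median log2 CPM and -0.20 for summits. The causes were not tested. Replicate numbers pair nothing in the labels, and deviations of same-numbered libraries correlated at -0.07 to 0.12 over the table. With the replicate block, calls were 222 for AIRE induction, 34 for Dox against Control and 102 for DoxEtop against Etop. Low counts limit precision: at the lowest summits the induced libraries held few counts each.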
